A study of Mus musculus with 14 samples.

Results

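Of 21887 protein-coding mouse genes, 6 that encode enzymes removing methyl groups from lysine 4 of histone H3 (H3K4) were examined, Kdm1a, Kdm1b, Kdm2b, Kdm5a, Kdm5b and Kdm5c. A region of enrichment (peak) was taken as belonging to such a gene when it lay inside the gene or within 10 kb of either end. Of 715437 peaks in 10 lists, 374 met this rule. For H3K4me1 they were 59 in untreated, 42 in MM-401 and 60 in 4-OHT cells. H3K4me2 gave 43, 36 and 52 and H3K4me3 gave 28, 18 and 33 in that order of conditions, which holds throughout, and Mll1 gave 3. The genes were chosen by the function of their products, with earlier results of these data known.

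Kdm1a (LSD1) and Kdm1b (LSD2) are flavin-dependent amine oxidases that remove mono- and dimethylation from H3K4. Kdm5a, Kdm5b and Kdm5c are JmjC dioxygenases that act mainly on tri- and dimethylated H3K4. Kdm2b is a JmjC enzyme best known for H3K36 and also reported to act on H3K4me3; its CXXC zinc finger binds unmethylated CpG islands, where it brings the Polycomb complex PRC1.1. H3K4me3 marks gene starts, H3K4me2 their wider surroundings, and H3K4me1 enhancers and the flanks of starts.

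The data are chromatin immunoprecipitation sequencing (ChIP-seq) peak lists from mouse embryonic stem cells, which were derived from blastocysts of strain C57BL/6J. All groups carried the genotype Mll1fl/fl; Cre-ER TM, that is, floxed alleles of the H3K4 methyltransferase Mll1 (gene symbol Kmt2a) with a Cre recombinase that tamoxifen activates, and all grew feeder-free on Matrigel with leukemia inhibitory factor, 5% serum and 15% serum replacement. Untreated cells were compared with cells given 100 µM MM-401, an inhibitor of Mll1, and with cells given 5 µM 4-hydroxytamoxifen (4-OHT), which deletes Mll1, in both cases for 9 days and 3 passages. H3K4me1, H3K4me2 and H3K4me3 were mapped in all 3 conditions and Mll1 in untreated cells. The labels name no vehicle control and no 4-OHT group without floxed alleles, so effects of the agents, of active Cre and of the loss of Mll1 activity cannot be told apart.

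Each group is 1 library, so differences between conditions have no replicate check and no p-values are given. Filtered tags (reads left after duplicates were removed) numbered 36.9, 40.1 and 25.3 M (M stands for mega) for untreated H3K4me1, H3K4me2 and H3K4me3, 22.2, 19.8 and 12.9 M after MM-401, and 61.8, 48.6 and 26.4 M after 4-OHT. Per the file headers the MM-401 libraries were handled in another processing folder, and whether this was a sequencing batch is not stated. Their tags were 57 to 60 bp long, against 50 to 51 bp in the other mark libraries. The fragment size for H3K4me1, H3K4me2 and H3K4me3 was 208, 238 and 293 bp, against 190, 197 and 184 bp in untreated cells. Their input held 12.2 M filtered tags, against 36.6 M for untreated cells and 55.0 M for 4-OHT cells. MM-401 cannot be told apart from these differences, from depth or from a possible batch. Nor can 4-OHT be told apart from the greater depth of its libraries and input. Levels are tags in peaks per M filtered tags (tags per M), and brackets hold 95% exact intervals, which cover counting error only. A gene is called higher or lower where its level differed by at least 1.5-fold. H3K4me3 at the start of Kmt2a, the targeted gene, was 107, 118 and 107 tags per M, which does not test the deletion. Of 5 stem cell markers, 4 had H3K4me3 at the start in every condition (Pou5f1 at 116, 166 and 172 tags per M), and Esrrb had none at its outer start. All 7 markers of other cells had H3K4me3 too, with 78.9 tags per M at Gata6 and 9.14 at Sox17 as the extremes. The median log2 ratios of H3K4me3 after MM-401 and 4-OHT were 0.44 and 0.23 for the stem cell markers and -0.36 and -0.01 for the other markers, and none of either list was past 1.5-fold. For H3K4me1, Pou5f1 and Esrrb were lower after MM-401, where 12.0% of all genes were. Nanog was higher and Esrrb lower after 4-OHT, where 18.6% and 2.93% of all genes were. For H3K4me2, Sox1 was higher after MM-401 and Pou5f1 and Sox2 after 4-OHT, where 2.73% and 3.98% of all genes were. In addition, 1 stem cell marker with an untreated H3K4me2 peak at the start had none after MM-401. The part of cell state in the results was not tested.

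The sequences below are the RefSeq promoters (GRCm38.p6, 300 bases each, 250 before and 50 after a start, read 5′ to 3′) of these genes. Of 8 matched entries, all of them under H3K4me3 peaks in all 3 conditions, 6 are printed, 2 for Kdm2b and 1 for each other gene; another pair of Kdm2b entries, which lie close to the printed ones and hold 47 and 18 CG, are left out. Those printed were chosen because H3K4me3 over the start is what these genes share while the number of CG pairs differs, and capitals mark each CG. An entry was matched for 5 of the 6 genes; Kdm5a was not.
Kdm1a (chr4:136602674-136602973, minus strand): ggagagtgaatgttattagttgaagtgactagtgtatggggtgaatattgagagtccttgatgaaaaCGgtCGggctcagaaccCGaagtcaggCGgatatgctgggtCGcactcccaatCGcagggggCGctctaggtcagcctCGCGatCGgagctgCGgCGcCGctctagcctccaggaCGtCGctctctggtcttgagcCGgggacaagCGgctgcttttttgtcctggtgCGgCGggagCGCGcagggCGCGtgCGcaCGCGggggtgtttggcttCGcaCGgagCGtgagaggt
Kdm1b (chr13:47043249-47043548, plus strand): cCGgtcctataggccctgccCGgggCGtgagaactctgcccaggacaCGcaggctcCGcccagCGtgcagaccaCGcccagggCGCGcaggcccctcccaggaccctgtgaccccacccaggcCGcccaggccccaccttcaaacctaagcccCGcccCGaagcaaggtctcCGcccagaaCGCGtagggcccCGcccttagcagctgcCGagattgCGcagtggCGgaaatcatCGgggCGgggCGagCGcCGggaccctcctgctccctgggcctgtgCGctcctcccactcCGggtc
Kdm2b outer start (chr5:122989050-122989349, minus strand): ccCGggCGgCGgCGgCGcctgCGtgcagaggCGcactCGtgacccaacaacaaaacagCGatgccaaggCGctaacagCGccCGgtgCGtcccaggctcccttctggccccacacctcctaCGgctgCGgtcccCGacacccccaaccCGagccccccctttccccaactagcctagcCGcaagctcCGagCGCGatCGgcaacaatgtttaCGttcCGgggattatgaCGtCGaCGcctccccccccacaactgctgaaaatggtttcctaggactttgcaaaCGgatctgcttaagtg
Kdm2b internal start (chr5:122900301-122900600, minus strand): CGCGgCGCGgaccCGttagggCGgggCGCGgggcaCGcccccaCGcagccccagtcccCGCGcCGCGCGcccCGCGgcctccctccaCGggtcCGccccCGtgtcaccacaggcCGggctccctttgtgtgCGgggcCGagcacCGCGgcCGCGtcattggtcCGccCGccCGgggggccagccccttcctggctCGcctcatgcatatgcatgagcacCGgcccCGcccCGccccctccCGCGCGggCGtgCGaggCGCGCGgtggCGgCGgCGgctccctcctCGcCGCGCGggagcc
Kdm5b (chr1:134559928-134560227, plus strand): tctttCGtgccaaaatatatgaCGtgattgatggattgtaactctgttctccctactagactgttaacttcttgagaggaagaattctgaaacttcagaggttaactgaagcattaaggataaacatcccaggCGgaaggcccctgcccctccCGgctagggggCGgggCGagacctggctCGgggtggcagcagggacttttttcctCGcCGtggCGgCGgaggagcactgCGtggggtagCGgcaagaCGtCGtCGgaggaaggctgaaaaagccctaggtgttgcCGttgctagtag
Kdm5c (chrX:152232977-152233276, plus strand): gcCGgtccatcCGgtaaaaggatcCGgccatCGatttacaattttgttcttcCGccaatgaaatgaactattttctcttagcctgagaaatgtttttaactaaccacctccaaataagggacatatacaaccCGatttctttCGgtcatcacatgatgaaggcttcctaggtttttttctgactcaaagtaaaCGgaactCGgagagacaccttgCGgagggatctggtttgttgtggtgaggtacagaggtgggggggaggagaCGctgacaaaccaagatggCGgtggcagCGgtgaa

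The outer Kdm2b promoter held 28 CG, Kdm1a 29 and Kdm1b 26, against a median of 13 over 21263 promoters. The internal Kdm2b promoter held 49, more than 98.9% of all promoters. Kdm5b, with 17, and Kdm5c, with 13, were near the middle. The letters GGGCGG occurred 6 times in the Kdm1b promoter, 4 times in the internal Kdm2b promoter and 1 time in each of the Kdm5b and outer Kdm2b promoters; 46.2% of all promoters hold them. The E-box letters CACGTG were in none of those printed and in 7.84% of all. The same held for the ETS letters CCGGAAG, which 11.6% of all hold, for the TATA box letters TATAAA, which 12.6% hold, and for the NRF1 palindrome, which 1.33% hold. The letters CCAAT were in the Kdm1a, internal Kdm2b and Kdm5c promoters and in 38.2% of all. All letters were sought on both strands, and a match describes letters and not a binding site.

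In untreated cells all 6 genes had an H3K4me3 peak within 1 kb of the start, as did 14747 of 20569 genes with a start. The start of Kdm5a was itself set as the end with more untreated H3K4me3. Its peak there was thus fixed in advance, as for all genes whose start was set this way. That peak is also shared with Ccdc77, which starts 0.27 kb away. Per kb of peak the level was highest at Kdm5a, 25.3 tags per M per kb (24.3 to 26.2), followed by Kdm1b at 20.2 (19.3 to 21.2). Kdm1a at 13.5 (12.9 to 14.1) and Kdm5c at 13.3 (12.6 to 13.9) had overlapping intervals. Kdm2b stood at 11.2 (10.7 to 11.8) and Kdm5b was lowest at 9.84 (9.50 to 10.2). Width ran in another order. The Kdm5b peak, 12884 bp, was wider than 99.8% of 14747 genes with H3K4me3 at the start, Kdm1a with 6307 bp exceeded 95.5%, Kdm2b with 5856 bp 94.1% and Kdm5c with 4979 bp 89.8%. Kdm5a with 4315 bp and Kdm1b with 3484 bp were wider than 84.4% and 71.5%, and the median of all genes was 2773 bp. Kdm5b thus had the broadest and least dense H3K4me3 of the 6 starts.

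**Figure D1:**
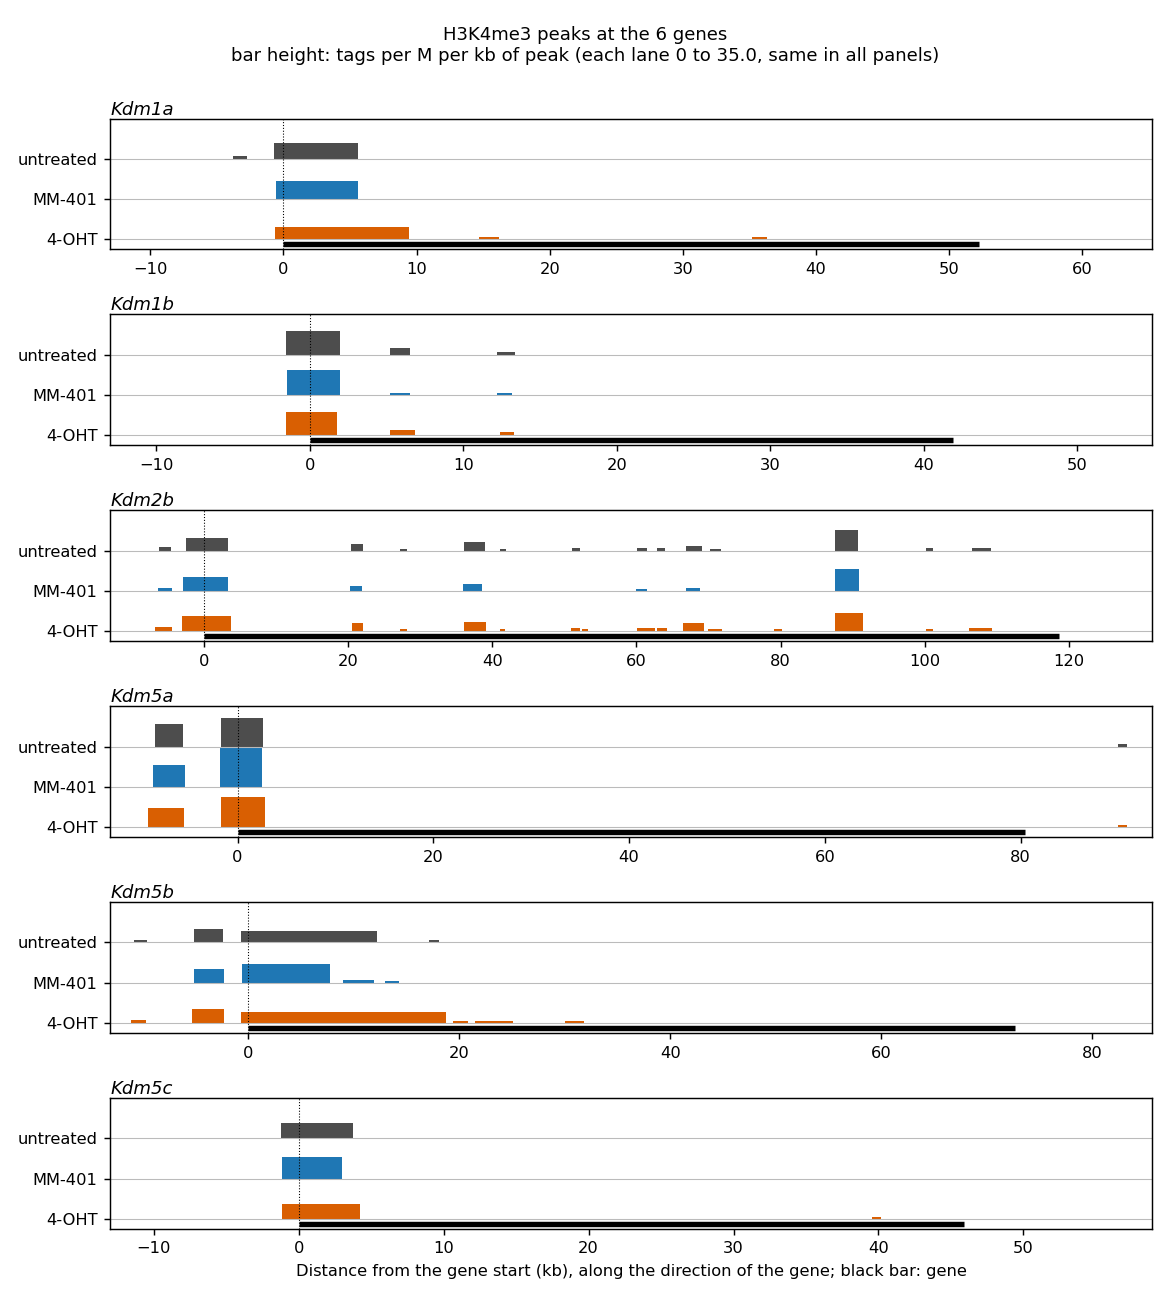
H3K4me3 peaks at the 6 genes in untreated (grey), MM-401 (blue) and 4-OHT (orange) cells. The x axis is the distance from the gene start in kb, bar height is tags per M per kb of peak on the same scale in every lane, and the black bar is the gene. Every start carries a peak in all 3 conditions. The peak over the Kdm5b start is 12884, 8274 and 19443 bp wide, and after MM-401 further pieces of that domain lie beside it. The weak peaks inside Kdm2b are fewer after MM-401 (7 peaks in all against 15), and the whole list holds 32191 peaks against 52912.

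The amine oxidase gene Kdm1a (chr4:136550533-136602787, minus strand) carried the H3K4me3 peak just described at its start. H3K4me3 there was 85.0 (81.4 to 88.6), 98.6 (93.3 to 104) and 104 tags per M (100.2 to 108.0) in untreated, MM-401 and 4-OHT cells. The peak was 6307, 6187 and 10052 bp wide, so that after 4-OHT it reached 9.39 kb into the gene in place of 5.62 kb. Tags per kb went the other way, at 13.5, 15.9 and 10.3. The untreated interval was below both treated ones, and the treated intervals overlapped. MM-401 cells had a log2 ratio to untreated cells of 0.22 (0.11 to 0.32), and 4-OHT cells one of 0.29 (0.21 to 0.37).

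H3K4me2 at the Kdm1a start was 57.1 (54.8 to 59.5), 61.6 (58.2 to 65.1) and 92.1 tags per M (89.4 to 94.8) over peaks of 11698, 10435 and 22569 bp. The 4-OHT level was 1.61-fold the untreated level with a log2 ratio of 0.69 (0.62 to 0.76), and tags per kb were 4.88, 5.90 and 4.08. The wide 4-OHT peak ran from the start to 21.7 kb and covered ground that held 3 separate untreated peaks and 4 after MM-401. Summed over that ground, the levels were 65.3, 73.4 and 92.1 tags per M over 16800, 16879 and 22569 bp, which gave 4-OHT a log2 ratio of 0.50 (a 1.5-fold call was no longer reached) and 3.89, 4.35 and 4.08 tags per kb. Deeper in the gene, from 34.8 to 40.6 kb, H3K4me2 was 6.92, 6.66 and 14.4 tags per M over 3133, 3135 and 5776 bp. From 22.8 to 28.2 kb an H3K4me2 peak of 7.97 tags per M was called only after 4-OHT.

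H3K4me1 lay over the body of Kdm1a. From 0.68 to 29.7 kb it was 63.2, 65.5 and 77.5 tags per M, over 25276, 22713 and 28884 bp. A small H3K4me1 peak over the start itself, 1.90 and 1.65 tags per M in untreated and 4-OHT cells, was not called after MM-401. Beyond 51.3 kb, almost wholly past the 3′ end of Kdm1a and over Luzp1, 3 untreated peaks of 5.23 tags per M in sum became 1 of 20.8 after 4-OHT, and none was called after MM-401. Over the gene and 10 kb on either side, H3K4me2 was 76.9, 82.2 and 126 tags per M and H3K4me1 was 100.0, 90.4 and 136.

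Kdm1b (chr13:47043373-47085279, plus strand) shares its promoter with Tpmt, a thiopurine methyltransferase gene, whose start is 0.035 kb away and is read in the other direction. The level at this start cannot be split between the genes. H3K4me3 was 70.4 (67.2 to 73.8), 73.3 (68.7 to 78.2) and 66.9 tags per M (63.9 to 70.1), over 3484, 3439 and 3333 bp. All 3 intervals overlapped. H3K4me2 was 32.1 (30.3 to 33.9), 36.0 (33.4 to 38.7) and 30.9 (29.4 to 32.5), with overlap of the untreated interval with either treated interval. After 4-OHT the log2 ratios of these 2 marks were -0.07 (-0.17 to 0.02) and -0.05 (-0.16 to 0.06), and both intervals held 0.

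Inside Kdm1b, a weaker H3K4me3 peak at 5.22 to 6.84 kb was 6.85 (173 tags), 2.63 (34 tags) and 6.63 tags per M (175 tags), a log2 ratio of -1.38 after MM-401 and -0.05 after 4-OHT. H3K4me2 on the same stretch was 6.54, 4.49 and 6.07 tags per M. A second internal H3K4me3 peak at 12.2 to 13.4 kb was 3.21, 1.86 and 2.61. Both internal peaks were thus lowest in MM-401 cells while the start was not. H3K4me1 there did not follow, with 2.49, 3.47 and 4.86 tags per M from 3.49 to 7.09 kb. After 4-OHT, H3K4me1 over the gene and its surroundings was 61.2 tags per M against 28.7 in untreated and 21.2 in MM-401 cells (2.13-fold the untreated level, over 32024, 18230 and 10785 bp in that order of conditions, at 1.91, 1.57 and 1.97 tags per kb). Of the 4-OHT sum, 40.1 tags per M were in a single peak of 18534 bp from 43.5 to 62.0 kb, past the 3′ end, over Dek and beyond the 10 kb limit. Over the whole ground of that peak, untreated and MM-401 cells had 25.5 and 17.8 tags per M on 12510 and 7718 bp, part of it outside the limit, and the log2 ratio after 4-OHT was 0.65 against 1.09 for the sum. With peaks within 1 kb of the gene in place of 10 kb, Kdm1b was no longer past 1.5-fold.

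Kdm5a (chr6:120364099-120444574) had no strand in the promoter table, and its start was taken as the end with more H3K4me3. Ccdc77, a coiled-coil protein gene, starts 0.27 kb from that end, so the H3K4me3 counted here is shared with it. H3K4me3 was 109 (105 to 113), 145 (138 to 152) and 116 tags per M (112 to 121), over 4315, 4348 and 4533 bp. The MM-401 level was above the other intervals at 1.33-fold the untreated one (log2 ratio 0.41, 0.33 to 0.50), at nearly the same width, with 25.3, 33.3 and 25.7 tags per kb. This ratio was higher than that of 90.9% of all genes. H3K4me2 was 43.3 (41.3 to 45.4), 47.6 (44.6 to 50.7) and 44.5 (42.7 to 46.4), with overlapping intervals.

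A further H3K4me3 peak lay from -9.13 to -5.32 kb relative to the Kdm5a start, inside Ccdc77, at 55.9, 62.1 and 60.1 tags per M. H3K4me1 flanked the start on both sides at 13.5, 12.4 and 15.5 tags per M. Of all 4-OHT H3K4me1 peaks, 16.7% overlapped no untreated peak. In the body of Kdm5a, 5 H3K4me1 peaks between 8.56 and 34.8 kb were called only after 4-OHT, at 1.47 to 4.65 tags per M. With them, H3K4me1 over the gene and 10 kb on either side was 27.5, 20.6 and 49.8 tags per M over 12963, 7369 and 29459 bp, or 2.12, 2.79 and 1.69 tags per kb. The 4-OHT sum was 1.81-fold the untreated one while the density was lower.

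Kdm5b (chr1:134560178-134632878, plus strand) held the widest H3K4me3 and H3K4me2 domains of the 6 starts. Mgat4e, a glycosyltransferase-family gene on the other strand, starts 1.568 kb inside Kdm5b and thus under the same domain. H3K4me3 was 127 (122.4 to 131.2), 138 (131.3 to 144.2) and 188 tags per M (183 to 193). The peak was 12884, 8274 and 19443 bp wide and ended 12.2, 7.69 and 18.7 kb into the gene. The 4-OHT level stood apart from the others, and the MM-401 interval lay just above the untreated one. The 4-OHT ratio was 1.48-fold (log2 0.57, 0.51 to 0.63), just inside the 1.5-fold limit and above 97.5% of all genes.

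Tags per kb at the Kdm5b start were 9.84, 16.6 and 9.68, so the broader 4-OHT domain was as dense as the untreated one. After MM-401 the ground of the untreated peak held separate peaks of 8274 and 2964 bp, another of 1342 bp lay just past it, and the small untreated peak at 17.1 to 18.0 kb was not called. After 4-OHT 1 peak covered the ground of both untreated peaks. Over the ground of all these peaks, from -0.71 to 18.7 kb, levels were 128, 147 and 188 tags per M over 13851, 12580 and 19443 bp, at 9.27, 11.7 and 9.68 tags per kb. The difference with 4-OHT was thus about as large when joining and splitting of peaks was taken out (log2 ratio 0.55). Past the domain, 3 H3K4me3 peaks between 19.4 and 31.8 kb, at 2.42, 7.16 and 2.92 tags per M, were called only after 4-OHT. Of all 4-OHT H3K4me3 peaks, 15.6% overlapped no untreated peak.

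H3K4me2 at the Kdm5b start was 114 (111 to 117), 117 (112 to 122) and 165 tags per M (162 to 169) over 22041, 19366 and 29020 bp. The log2 ratio after 4-OHT was 0.53 (0.48 to 0.59), and 0.44 over joined ground, where tags per kb were 4.76, 5.10 and 5.69. Just beyond, from 28.4 to 33.6 kb, H3K4me2 was 5.94, 2.62 and 12.8 tags per M over 3361, 1666 and 5182 bp. H3K4me1 formed a domain from 1.41 to 36.6 kb of 122, 126 and 132 tags per M, over 32029, 31005 and 35216 bp, which differed less than H3K4me2 and H3K4me3 did. The 3 marks were layered. The main H3K4me3, H3K4me2 and H3K4me1 peaks ended 12.2, 21.1 and 33.5 kb into the gene in untreated cells. They ended at 7.69, 18.3 and 32.5 kb after MM-401 and at 18.7, 28.2 and 36.6 kb after 4-OHT. After MM-401, further H3K4me3 and H3K4me2 peaks lay beyond these ends on the ground of the untreated main peaks. Over joined ground H3K4me2 covered 25592 bp in untreated and 25510 bp in MM-401 cells, so these MM-401 ends depend on where peaks were split. Farther on, from 63.2 to 73.9 kb, H3K4me1 was 6.21, 3.15 and 15.5 tags per M over 4209, 1747 and 10682 bp.

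**Figure D2:**
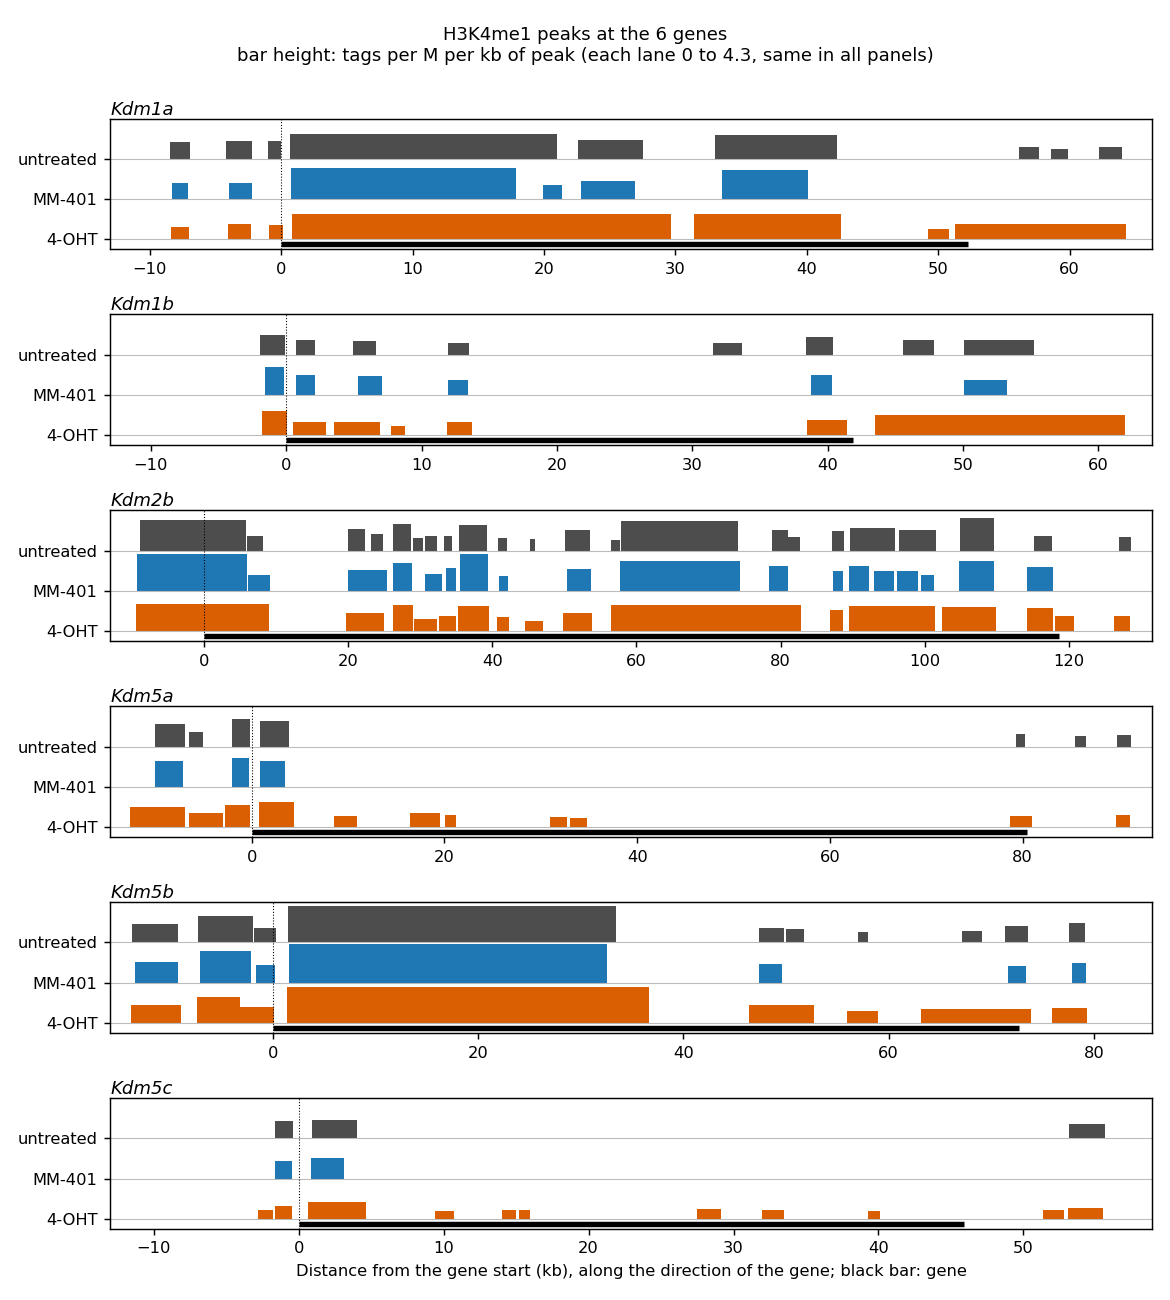
H3K4me1 peaks at the 6 genes, drawn as for H3K4me3. The x axis is the distance from the gene start in kb and bar height is tags per M per kb. The domains in the first parts of Kdm1a and Kdm5b are present in all 3 conditions. After 4-OHT, in the deepest library, Kdm5a and Kdm5c show 5 and 6 weak peaks in the gene body that the other conditions lack. The peak at the 3′ end of Kdm5a is also in untreated cells.

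Kdm5c (chrX:152233198-152279102, plus strand), an X-linked gene mutated in intellectual disability, had the fewest peaks. H3K4me3 at its start was 65.97 (62.8 to 69.2), 75.2 (70.5 to 80.1) and 71.3 tags per M (68.1 to 74.5), over 4979, 4100 and 5409 bp. The 4-OHT interval overlapped both others, and the MM-401 interval was just above the untreated one. H3K4me2 was 26.4 (24.8 to 28.0), 24.8 (22.7 to 27.1) and 27.0 (25.5 to 28.5), with overlapping intervals. H3K4me1 flanked the start at 8.22 (7.32 to 9.20), 7.20 (6.13 to 8.41) and 8.79 (8.07 to 9.56), also with overlap, and no H3K4me1 peak lay over the promoter sequence in any condition.

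Away from the start the H3K4me1 lists of Kdm5c differed more. It had 3, 2 and 11 H3K4me1 peaks, and 8 of the 11 in 4-OHT cells overlapped no untreated peak, against 16.7% of all 4-OHT H3K4me1 peaks. These 8 were weak, at 0.696 to 1.68 tags per M with a median of 64 tags, and their median score was at percentile 16.9 of the 4-OHT list. A peak 53.1 to 55.6 kb from the start, past the 3′ end, was 3.93 tags per M in untreated and 2.70 in 4-OHT cells and was not called after MM-401. In sum over the gene and 10 kb on either side, H3K4me1 was 12.1, 7.20 and 20.4 tags per M over 6870, 3458 and 17062 bp, or 1.77, 2.08 and 1.19 tags per kb. The MM-401 sum was 0.59-fold and the 4-OHT sum 1.68-fold the untreated one, and both differences went with the number of peaks called, 2 and 11 against 3. The 4-OHT H3K4me1 library was the deepest of all, with 167% of the untreated tags, and the MM-401 library had 60.3%; their part in these calls was not tested.

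Kdm2b (chr5:122870664-122989270, minus strand) held the most peaks, 22, 18 and 16 for H3K4me1, 22, 18 and 21 for H3K4me2 and 15, 7 and 16 for H3K4me3. The lncRNA A930024E05Rik has an end 0.084 kb upstream. At the outer start H3K4me3 was 65.6 (62.5 to 68.9), 72.6 (68.1 to 77.4) and 90.6 tags per M (87.0 to 94.3), over 5856, 6275 and 6812 bp, at 11.2, 11.6 and 13.3 tags per kb. The 4-OHT interval was above the others, which overlapped slightly. The log2 ratio of 0.46 (0.37 to 0.56) after 4-OHT was above that of 96.5% of all genes, and here width and density were both higher. H3K4me2 at this start was 61.01 (58.6 to 63.5), 81.2 (77.3 to 85.2) and 85.7 (83.1 to 88.4), over 8079, 9095 and 13482 bp, above the untreated level under both treatments. Over joined ground it was 71.8, 93.6 and 85.7 tags per M, at 6.67, 7.70 and 6.36 tags per kb, and the MM-401 level was then the highest.

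The internal start of Kdm2b, whose CG-rich promoter is printed above, lay under a second strong H3K4me3 peak 87.5 to 91.5 kb from the outer start. H3K4me3 there was 57.5, 65.0 and 62.1 tags per M over 3233, 3419 and 3977 bp, with log2 ratios of 0.18 and 0.11. H3K4me2 at the same place, 87.3 to 92.4 kb, was 27.9, 31.6 and 29.8. Per kb, H3K4me3 at the internal start was 17.8, 19.0 and 15.6, denser than at the outer start in each condition, and lowest after 4-OHT where the outer start was densest.

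Between these starts lay weaker H3K4me3. At 20.3 to 22.1 kb it was 9.62, 7.12 and 10.6 tags per M, and at 36.0 to 39.1 kb 23.2, 15.9 and 23.3. The peak at 36.0 to 39.1 kb overlaps an end of the lncRNA Gm33118, which lies from 36.9 to 47.6 kb. At 66.5 to 69.4 kb it was 8.43 (213 tags), 5.34 (69 tags) and 19.95 tags per M (527 tags), on 2287, 2064 and 2890 bp, so that it was lowest after MM-401 and highest after 4-OHT. H3K4me2 over the surrounding 59.8 to 74.2 kb was 36.4, 38.5 and 55.1 tags per M, and H3K4me1 over 56.4 to 82.8 kb was 58.8, 59.2 and 73.4. In MM-401 cells 8 of the 15 untreated H3K4me3 peaks of Kdm2b had no overlapping peak, all of them weak, with untreated levels of 1.27 to 3.05 tags per M. In 4-OHT cells all 15 were overlapped. Of all untreated H3K4me3 peaks, 38.2% had no overlapping peak after MM-401 and 8.19% had none after 4-OHT.

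**Figure D3:**
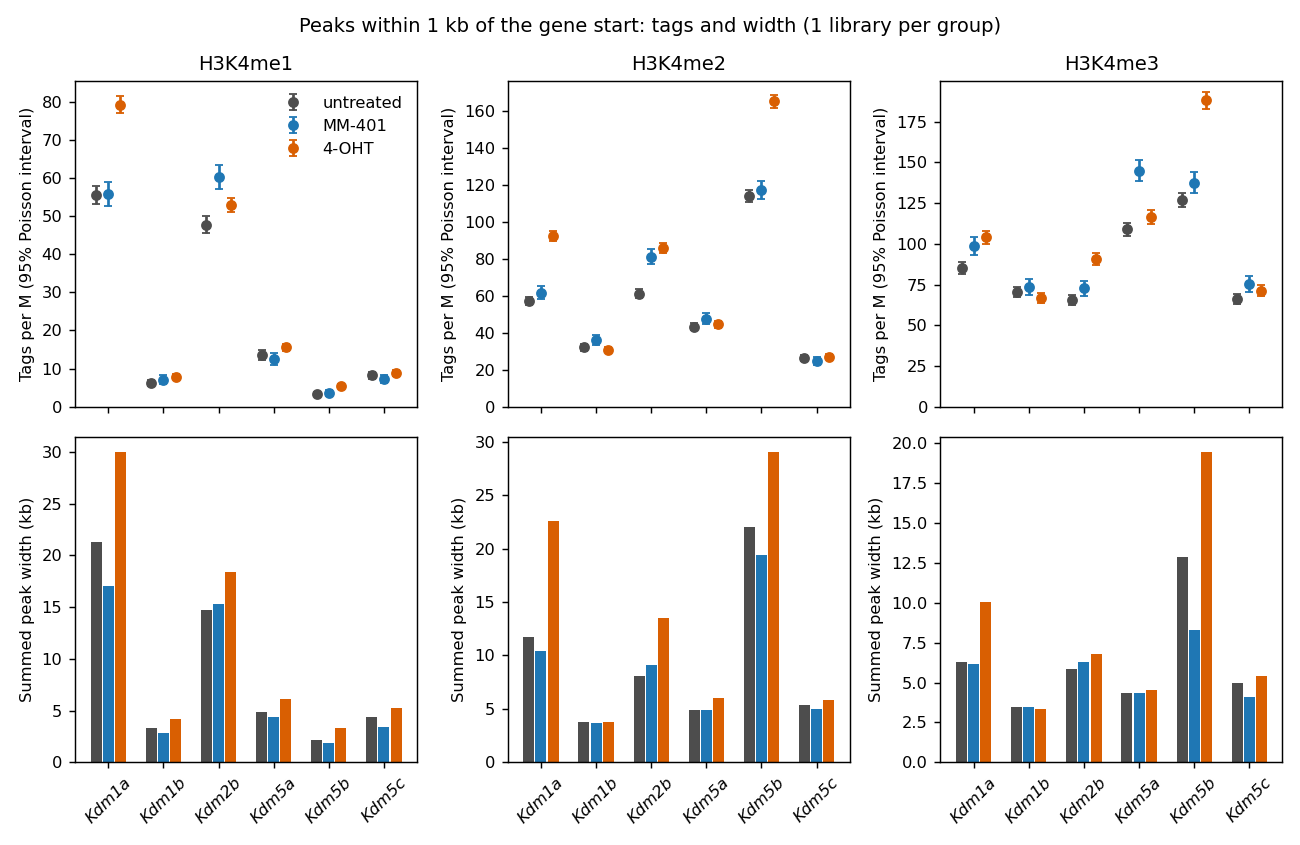
Tags per M in peaks within 1 kb of each gene start (upper row, points with 95% Poisson intervals) and the summed width of those peaks in kb (lower row), for H3K4me1, H3K4me2 and H3K4me3 and for untreated (grey), MM-401 (blue) and 4-OHT cells (orange), 1 library each. The 4-OHT points stand above the others for H3K4me2 and H3K4me3 at Kdm5b (165 and 188 tags per M) and for H3K4me2 at Kdm1a (92.1), where the peaks are also wider.

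Across the 6 starts, MM-401 gave no gene past 1.5-fold in either direction when whole peaks were counted. With lists of equal length Kdm1b was past it for H3K4me1 (log2 ratio 0.84), and with only the part of a peak inside the window counted, Kdm1a was for H3K4me1 (-1.94) and Kdm5b for H3K4me3 (0.66). Of all genes with a peak in both libraries, 7.44% were higher and 12.0% lower for H3K4me1, 2.73% and 2.06% for H3K4me2 and 1.94% and 5.27% for H3K4me3, so a count of 0 of 6 is near what all genes gave. All 6 starts had somewhat more H3K4me3 after MM-401, with log2 ratios from 0.06 to 0.41 and a median of 0.17, but the median of 14097 genes was 0.16. For H3K4me2 the medians were 0.12 for the 6 genes and 0.18 for all genes, and for H3K4me1 0.06 and 0.03. The medians of the 6 starts were thus close to those of all genes.

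After 4-OHT, Kdm5b was past 1.5-fold for H3K4me1 (3.25, 3.51 and 5.44 tags per M, a 1.67-fold difference), where 18.6% of all genes were higher and 2.93% lower. That small peak abuts a larger upstream one, and summed over both the levels were 18.1, 20.3 and 16.8, with a log2 ratio of -0.10 in place of 0.74, so this call rests on where the border between them was set. Kdm1a was past it for H3K4me2, where 3.98% were higher and 1.46% lower. No start was past it for H3K4me3, where 2.48% were higher and 1.43% lower. In log2 ratios, the H3K4me3 median of the 6 genes was 0.20 against 0.01 for 14581 genes, and the H3K4me2 median 0.27 against 0.00. Kdm1a, Kdm2b and Kdm5b stood above the rest, with 0.29, 0.46 and 0.57 for H3K4me3 and 0.69, 0.49 and 0.53 for H3K4me2. The other 3 genes ranged from -0.07 to 0.11 for H3K4me3 and from -0.05 to 0.04 for H3K4me2. Kdm1a, Kdm2b and Kdm5b were also the 3 with the widest untreated H3K4me3 peaks. These medians rest on counting whole peaks: with only the part of a peak inside the 1 kb window counted, as if its tags lay evenly, they were -0.0072 for H3K4me3 and -0.16 for H3K4me2.

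Over whole genes with 10 kb on either side, 1 member was past 1.5-fold after MM-401, Kdm5c for H3K4me1 at 0.59-fold, where 14.1% of all genes were lower and 2.41% higher. With peaks within 1 kb of the gene its log2 ratio was -0.19 in place of -0.75, and the call was lost. After 4-OHT, 3 of 6 were higher for H3K4me1 (Kdm1b, Kdm5a and Kdm5c), against 12.4% of all genes, and none lower, against 2.27%. Kdm1a was higher for H3K4me2, at 1.64-fold, against 3.46% of all genes, and none lower, against 1.25%. After MM-401 the H3K4me2 count was 0 of 6, where 1.67% were higher and 3.77% lower. For H3K4me3 the count was 0 of 6 under either treatment, where 1.27% were higher and 7.58% lower after MM-401 and 2.61% and 1.62% after 4-OHT. The 4-OHT H3K4me1 medians were 0.59 for the 6 genes and 0.16 for all genes in log2 ratio of tags, and -0.10 and -0.12 in log2 ratio of tags per kb, so more ground was called and the density was not higher.

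**Figure D4:**
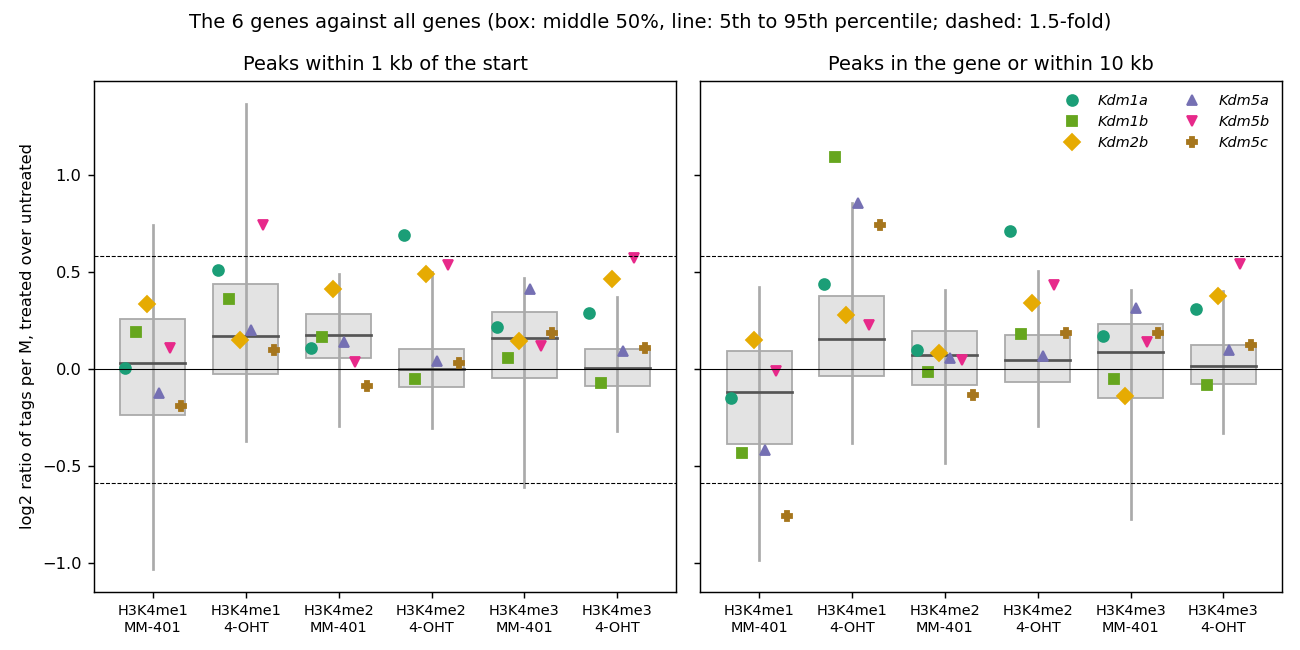
The log2 ratio of tags per M, treated over untreated, for the 6 genes (coloured symbols) beside all genes with peaks in both libraries (box, middle 50%; line, 5th to 95th percentile), at starts (left) and over genes with 10 kb on either side (right). Dashed lines mark 1.5-fold. At starts, Kdm5b, Kdm2b and Kdm1a lie toward the upper end for H3K4me2 and H3K4me3 after 4-OHT (Kdm5b 0.57 for H3K4me3). After MM-401, Kdm2b for H3K4me1 (0.34) and H3K4me2 (0.41) and Kdm5a for H3K4me3 (0.41) also lie above the boxes. Kdm5b (0.04) and Kdm5c (-0.09) lie below the box for H3K4me2, and the other MM-401 values at starts lie in the boxes.

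Peaks called in only some of the lists were mostly weak. Of the members' untreated H3K4me1 peaks, 19 of 59 had no overlapping peak after MM-401 (32.2%, against 34.4% of all untreated peaks). For H3K4me2 it was 10 of 43 (23.3% against 33.8%) and for H3K4me3 12 of 28 (42.9% against 38.2%). None of these had more than 3.93 tags per M in untreated cells. MM-401 peaks that overlapped no untreated peak numbered 0 of 42, 2 of 36 and 1 of 18, against 3.36%, 2.70% and 0.864% of all MM-401 peaks. After 4-OHT, 2 of 59, 2 of 43 and 1 of 28 had no overlapping peak, against 9.35%, 6.44% and 8.19%. Peaks found in 4-OHT but not in untreated cells were 16 of 60, 19 of 52 and 8 of 33 (26.7%, 36.5% and 24.2%), against 16.7%, 18.2% and 15.6% of all 4-OHT peaks. At the members, 11 H3K4me1, 5 H3K4me2 and 2 H3K4me3 peaks of 4-OHT cells each spanned at least 2 untreated peaks, against 7.99%, 3.50% and 2.03% of all 4-OHT peaks.

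Joining in MM-401 cells was rarer, with 2, 1 and 0 such peaks for the 3 marks, against 5.43%, 3.07% and 2.87% of all MM-401 peaks. Untreated peaks that were in pieces after MM-401 numbered 4, 2 and 1, against 4.27%, 1.54% and 0.365%, and the H3K4me3 one was the Kdm5b domain. After 4-OHT 1, 0 and 0 were in pieces, against 2.01%, 1.53% and 0.661%. Of member peaks that matched one to one, 11 of 32 H3K4me1 peaks were at least 1.5-fold higher after 4-OHT and 1 lower, where 9.98% and 7.80% of all were. For H3K4me2 the counts were 8 and 0 of 28, where 9.44% and 6.20% were. After MM-401 they were 3 and 1 of 33 for H3K4me1, where 9.18% and 9.46% were, and 0 and 3 of 30 for H3K4me2, where 8.06% and 9.44% were.

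The H3K4me3 peaks that matched one to one between untreated and MM-401 cells parted by strength. All 8 member peaks of at least 30 untreated tags per M (a limit chosen after the values were seen) were higher after MM-401, with a median log2 ratio of 0.16. All 7 weaker ones were lower, with a median of -0.54, and 3 of them by at least 1.5-fold. Of all such peaks in the genome, 15.5% of the strong and 70.1% of the weak were lower, and 20.1% of both together were at least 1.5-fold lower and 3.58% higher. The weak H3K4me3 peaks in question lay in Kdm1b (2) and in or beside Kdm2b (5), and were lower after MM-401 in the direction that most weak peaks took. Some of these signs were within counting error. Among strong peaks the interval held 0 at the Kdm1b start (-0.06 to 0.17) and upstream of Kdm5b (-0.11 to 0.22). Among weak ones it held 0 at Kdm2b from 60.0 to 62.6 kb (-0.84 to 0.34) and from -6.83 to -4.44 kb (-0.72 to 0.23). After 4-OHT, 3 of 23 matched member peaks were at least 1.5-fold higher and 0 lower, against 9.65% and 6.16% of all. The share of tags in H3K4me3 peaks was 82.5%, 85.6% and 87.5% in the 3 libraries, and the share of reads removed as duplicates was 0.60, 0.42 and 0.67; their part in these ratios was not tested.

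Mll1 itself was called in untreated cells at Kdm2b, with 2 peaks, and at Kdm5c, with 1. The Kdm2b peaks were at 60.7 kb (chr5:122928381-122928541, 13 tags, false discovery rate 5.56%) and 62.0 kb from the outer start (chr5:122927049-122927224, 11 tags, 1.75%). Both lay inside the gene under H3K4me1 and H3K4me2 peaks of all 3 conditions, and the one at 60.7 kb also under H3K4me3 of 3.28, 2.79 and 6.02 tags per M. The one at 62.0 kb was under that H3K4me3 peak after 4-OHT, when it was wider, and under none in the other conditions. Their scores were at percentiles 94.8 and 21.9 of the Mll1 list. The Kdm5c peak was 18.0 kb inside (chrX:152251161-152251259, 10 tags, 3.97%), where no H3K4 peak was called in any condition. No member had Mll1 at its start, as against 3.87% of genes with one. Having a peak at 2 of 6 genes compares with 15.4% of all genes and 21.7% of genes at least as long as the shortest member. The Mll1 library was weakly enriched, with 0.285% of its 30.1 M tags in 4004 peaks of a median of 11 tags, so an absent peak is not an absence of Mll1.

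Genes that work with these enzymes were counted by the same measure at the start. Of 10 CoREST and NuRD partners of Kdm1a, all had all 3 marks in each condition; after 4-OHT, 4 were higher for H3K4me1 (Rcor3, Hdac2, Hmg20b and Mta1), 1 for H3K4me2 (Zmynd8) and 0 for H3K4me3, with an H3K4me3 median of 0.09. After MM-401, Hdac2 and Zmynd8 were lower for H3K4me1, Zmynd8 was higher for H3K4me2, and none was past 1.5-fold for H3K4me3, with a median of 0.24. Of 9 Sin3-complex partners of Kdm5 enzymes, Sin3b was higher for H3K4me1 under both treatments and Brms1 after 4-OHT, and none was past 1.5-fold for H3K4me2 or H3K4me3. For H3K4me1, 18.6% of all genes were higher after 4-OHT, and 7.44% were higher and 12.0% lower after MM-401. For H3K4me2, 3.98% were higher after 4-OHT and 2.73% after MM-401. For H3K4me3, 2.48% were higher and 1.43% lower after 4-OHT, and 1.94% and 5.27% after MM-401.

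Of 8 PRC1.1 partners of Kdm2b that were found, 5 were higher for H3K4me2 after 4-OHT (Bcor, Rybp, Ring1, Rnf2 and Usp7), against 3.98% of all genes. The median log2 ratio of the 8 was 0.65, against 0.00 for all genes. This count and median, like those of the other lists, rest on whole peaks, and no other way of counting is given for them. Ring1 and Rnf2 encode the ubiquitin ligases of the complex, and Bcor and Rybp other subunits. H3K4me2 at Ring1 was 49.98 tags per M in untreated and 92.5 in 4-OHT cells over 7648 and 13199 bp. At Usp7 it was 8.06 and 247 over 3777 and 51872 bp, a single wide peak that reached the start after 4-OHT. For H3K4me3 after 4-OHT, the other 4 were within 1.5-fold, as Kdm2b itself was, and Usp7 had no untreated peak at the start and one of 2.23 tags per M. After MM-401, Skp1 and Ring1 were higher for H3K4me3, 2 of 7 against 1.94% of all genes, and Pcgf1 and Bcor lower for H3K4me1, 2 of 8 against 12.0%. For H3K4me1 after 4-OHT, Rybp and Ring1 were higher and Rnf2 lower, against 18.6% and 2.93%.

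Among 16 demethylases of other lysines and other JmjC genes, 14 had H3K4me3 at the start. Jmjd1c was the gene past 1.5-fold for H3K4me3 after 4-OHT, at 151 and 254 tags per M over 13030 and 26245 bp. It was also higher for H3K4me2, as was Kdm2a. The shares of all genes were 2.48% and 3.98%. Kdm5d, the Y-linked relative of Kdm5c, was higher for H3K4me1, against 18.6%. After MM-401, Kdm2a was higher for H3K4me2 and Phf8 lower for H3K4me1, against 2.73% and 12.0%. H3K4me2 at the Kdm2a start covered 2216, 5451 and 7925 bp. Kdm7a and Kdm5d had an untreated H3K4me1 peak at the start and none after MM-401, and Uty had one under either treatment only. The opposing enzymes, the 6 H3K4 methyltransferases Kmt2a to Kmt2d, Setd1a and Setd1b, had 0 past 1.5-fold for H3K4me2 or H3K4me3 under either treatment. For H3K4me1, 3 of 5 with a peak in both were higher after MM-401 (Kmt2a, Kmt2c and Setd1b), against 7.44% of all genes, and 3 of 5 after 4-OHT (Kmt2a, Kmt2b and Setd1a), against 18.6%. The sixth gene had an untreated peak and none after treatment, Kmt2d at 2.39 tags per M for MM-401 and Kmt2c at 5.15 for 4-OHT. The H3K4me3 medians of methyltransferases were 0.13 after MM-401 and 0.03 after 4-OHT, and those of the 6 demethylases 0.17 and 0.20.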

How the data were processed

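Peak lists of 10 ChIP-seq libraries were used; 4 inputs entered only through the authors' peak calls. The submitters' processing notes name Bowtie2, SAMtools 1.5, MACS2 and mm10. Per the file headers the caller was MACS 1.4.2, with a p cutoff of 1e-05, on libraries from which duplicates had been removed, each against 1 input. The authors deposited, for each peak, the counts of filtered tags in it as whole numbers. Their deposited score, a transform of the p-value, served only for percentiles within a list. The fold (a ratio to local background) that the authors deposited was not compared, and false discovery rates are in percent as deposited. Other deposited values are the width of the peak and the offset of its summit.

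Tags of peaks within 1 kb of a gene start, and of peaks in the gene or within 10 kb, were summed over whole peaks and divided by the filtered tags in each file header. Genes were the 21887 protein-coding RefSeq genes of GRCm38.p6; a start is the 5′ end by the strand of the promoter table, or else (for 3077 genes, Kdm5a among them) the end with more untreated H3K4me3, which picked the same end in 92.9% of 11930 genes that could be checked. Peaks of 2 lists matched when they shared 1 bp. Sequences and letters come from the RefSeq promoter table. Intervals are exact Poisson at 95%, computed with scipy 1.17.1 and pandas 2.3.3 under Python 3.11.15, and figures with matplotlib 3.10.9. On simulated tags for 14747 genes (untreated H3K4me3 at the start), 200 genes were halved or doubled. Of the halved 99% and of the doubled 100% were recovered, and the interval held the true ratio in 94% of them. Peak borders were the same in both simulated lists, and the planted changes were past the 1.5-fold limit. This check thus did not cover widening, joining or splitting of peaks. Every member and, of each list, all genes past 1.5-fold at the start are named. Members and lists were chosen with earlier results of these data known. Alternatives were other scalings, windows, peak filters and ways of sharing out tags.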

Additional observations from a re-analysis of the deposited data

How the results depend on the processing

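No paired analysis was possible because each group is 1 library, and for the same reason no replicate could be left out. Of 7 calls past 1.5-fold among the members, 7 remained with peaks of at most 5% false discovery rate and 7 with lists of equal length, which added Kdm1b H3K4me1 at the start after MM-401, and 6 each with scaling to tags in peaks (Kdm1a H3K4me2 at the start was lost) and with centring on the median of all genes (Kdm5b H3K4me1 at the start was lost). Sharing out tags by the part of a peak in the window reversed 2 of them, Kdm5b H3K4me1 (-0.086) and Kdm1a H3K4me2 (-0.28) after 4-OHT, and added Kdm1a H3K4me1 and Kdm5b H3K4me3 at the start after MM-401. Peaks within 5 kb of the start lost Kdm5b H3K4me1 and added Kdm5a H3K4me1 after 4-OHT. Joining regions over the 3 conditions, an alternative chosen after seeing the data, reversed Kdm5b H3K4me1 (-0.10) and left Kdm1a H3K4me2 under 1.5-fold. With peaks within 1 kb of the gene, Kdm5c H3K4me1 after MM-401 and Kdm1b H3K4me1 after 4-OHT were not past it and Kdm5b H3K4me3 after 4-OHT was.

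Medians of the 6 log2 ratios moved as follows. With shared-out tags, the 4-OHT medians at the start were -0.13 for H3K4me1, -0.16 for H3K4me2 and -0.0072 for H3K4me3. The 4-OHT median of H3K4me2 at the start was 0.14 when scaled to tags in peaks, 0.15 with peaks within 5 kb and 0.15 with joined regions, and over whole genes 0.14 when scaled to tags in peaks. Centring gave MM-401 medians at the start of -0.052 for H3K4me2 and 0.0089 for H3K4me3, and over whole genes 0.069 for H3K4me3 after MM-401 and 0.44 for H3K4me1 after 4-OHT. For H3K4me1 over whole genes, the MM-401 median was -0.11 with lists of equal length, -0.16 when scaled to tags in peaks and -0.060 with peaks within 1 kb of the gene, where the 4-OHT median was 0.44. The cause of these moves was not tested. Sharing out takes tags as even along a peak, so by its construction a wider peak gives less to the window. The weak peaks rest on few tags, and the MM-401 libraries are the shallowest for each mark; the part of depth was not tested.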
